A study of Mus musculus with 6 samples.

Results

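Kidneys of newborn mice with active Notch2 in the tubules were compared with wild type kidneys for 42 genes of mitosis, chosen by name as kinases, spindle proteins and kinetochore proteins of dividing cells. All 42 were found by their symbol among the 23669 gene rows of the deposited table. The series holds RNA-seq of whole kidneys taken at postnatal day 3. Wild type mice gave 3 libraries, and mice of the genotype R26NICD2/+Kspcre, here NICD2, gave another 3. The NICD2 allele puts the intracellular domain of the Notch2 receptor, its active fragment, at the Rosa26 locus, and Kspcre is a Cre recombinase under the Ksp-cadherin promoter, which works in tubule epithelium and not in every cell of the organ. The wild type group carries no allele or agent in its labels, and no treatment is named for either group.

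Mitosis is driven by the kinase CDK1 bound to A-type and B-type cyclins. Aurora and Polo-like kinases build the spindle, kinetochore proteins attach chromosomes to it, and the spindle assembly checkpoint holds back the anaphase-promoting complex until every chromosome is attached. Transcripts of most of these genes are highest in G2 and mitosis. In the newborn mouse kidney, cells divide in the nephron-forming outer cortex and in growing tubules. In RNA from a whole organ, fewer cells of a type and less RNA per cell cannot be told apart.

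Levels are in FPKM, fragment counts scaled to transcript length and library size, so levels of different genes can be compared per length. The log2 fold change is the NICD2 mean of log2(FPKM + 1) less that of wild type, with its standard error (SE). It comes from limma, a linear model that was fitted to all 13765 genes reaching 1 FPKM in 3 or more libraries. This scale understates the change of low genes. A gene was called at a Benjamini-Hochberg adjusted p under 0.05 over all those genes, two-sided. All 42 genes passed the filter. Gene positions are those of the table, on the mouse build GRCm38.

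The row named for human Notch2 held 0, 0.03 and 0.03 FPKM in wild type and 75.4, 79.6 and 60.2 FPKM in NICD2. Depth, estimated from the steps between low values, was 15650000 to 17150000 fragments per library. Kidney markers were present in every library, with a summed level of 8 markers of 1107 to 1206 FPKM in wild type and 986 to 1112 FPKM in NICD2. Libraries stood apart in 2 ways. Wild type 3 and NICD2 1 had little adrenal RNA, with 6 markers of that gland summing to 4.07 and 2 FPKM, against 92.5 to 107 FPKM in the other 4 libraries. NICD2 3 held 0 FPKM of 4 genes of the Y chromosome (Uty, Kdm5d, Ddx3y and Eif2s3y), and the other 5 libraries at least 4.56 FPKM of each. The human Notch2, Y-linked, Hhex, Ide and March5 rows were chosen after their values were seen. The labels do not say that the libraries of a group came from separate animals, so the p-values refer to the spread among these libraries alone, and part of it may be technical.

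In NICD2 kidneys 8 of the 42 mitotic genes rose: Hmmr, Ect2, Cdk1, Spc24, Anln, Prc1, Racgap1 and Spc25. Their fold changes ran from 0.38 to 0.53. The fold change was above 0 for 39 of 42 genes, against 48.2% of all genes tested, and its median was 0.32 against -0.01 over all genes. Over all 13765 genes limma called 4.93% as higher and 3.86% as lower, and it called none of the 42 as lower. The difference of the means ran from -17.3% for Cdc25b to 50.7% for Hmmr. At an unadjusted p under 0.05, 29 of the 42 were higher and 2 lower, where 12.4% of all genes were higher and 12.6% lower. The values of the groups did not overlap for 23 genes that were higher in NICD2 and 2 that were lower, against a background of 15.0% and 15.5%.

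**Figure D1:**
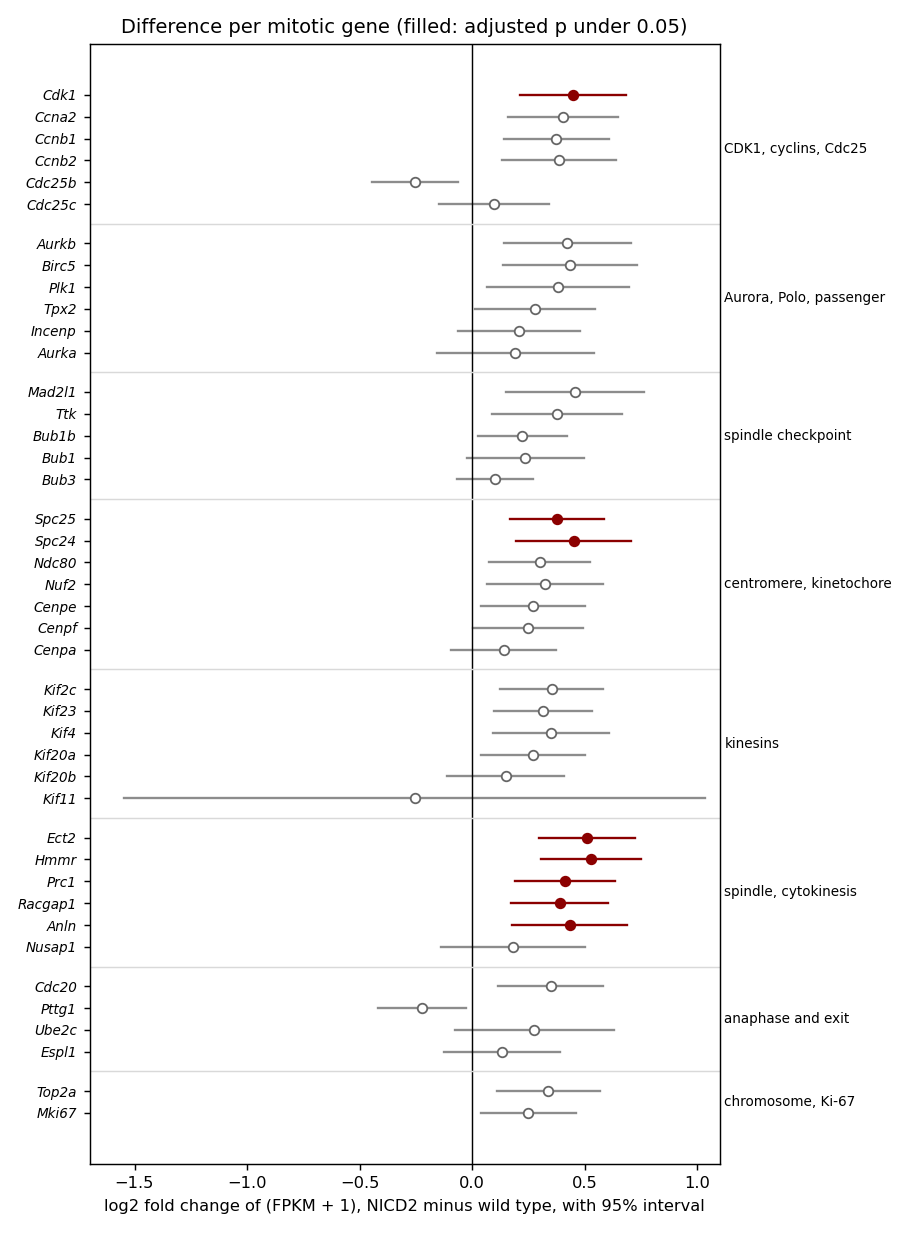
Log2 fold change of (FPKM + 1), NICD2 minus wild type, of the 42 mitotic genes on the x axis, ordered by role. Points are limma estimates (n = 3 per group), bars are 95% intervals, and filled points are the 8 genes with adjusted p under 0.05. Apart from Cdc25b, Pttg1 and Kif11, every point lies to the right of 0.

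Upstream sequences of the genes were searched for motifs, without regard to the direction or call of a gene. Promoters of mitotic genes are known for the CHR element (TTTGAA, with a variant TTTAAA), bound by the DREAM and MuvB complexes. They are also known for CCAAT boxes bound by NF-Y. The 42 genes were chosen by name as genes of mitosis, and a link of these motifs to the NICD2 difference was not tested. RefSeq gave a start for 35 of the 42 genes on GRCm38.p6, and the 250 bases before it were searched on both strands. For the counts that follow, bases past another annotated start were kept, also for Ect2, which has such a start upstream. CCAAT was found in 26 of the 35 (74.3%), against 34.5% of 27025 genes, and at least 2 copies were found in 17 (48.6%) against 10.5%. TTTGAA was found in 11 (31.4%) against 16.3%, TTTAAA in 6 (17.1%) against 12.1%, and CCAAT together with TTTGAA in 10 (28.6%) against 5.73%. The E2F motifs TTTCCCGC and TTTGGCGC were found in none, against 0.929% and 0.437%, and GTGGGAA, the motif of the Notch partner RBPJ, in Prc1 alone (2.86%) against 5.41%. The sequences of 4 called genes are shown, with every match of these motifs in capitals on whichever strand it lies (ATTGG is CCAAT and TTCCCAC is GTGGGAA, each on the opposite strand), read 5′ to 3′ towards the gene. They are Hmmr at chr11:40733465-40733687 (minus strand), Cdk1 at chr10:69352913-69353162 (minus strand), Prc1 at chr7:80294201-80294444 (plus strand) and Racgap1 at chr15:99651657-99651906 (minus strand).
Hmmr: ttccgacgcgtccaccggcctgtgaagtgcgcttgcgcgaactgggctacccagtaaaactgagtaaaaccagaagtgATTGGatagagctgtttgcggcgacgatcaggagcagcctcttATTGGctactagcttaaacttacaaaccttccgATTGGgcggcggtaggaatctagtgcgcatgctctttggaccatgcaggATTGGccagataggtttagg
Cdk1: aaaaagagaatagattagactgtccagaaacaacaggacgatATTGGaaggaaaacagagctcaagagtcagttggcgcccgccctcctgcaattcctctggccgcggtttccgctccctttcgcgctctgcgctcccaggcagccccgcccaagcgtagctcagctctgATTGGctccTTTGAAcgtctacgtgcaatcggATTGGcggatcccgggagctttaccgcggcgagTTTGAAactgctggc
Prc1: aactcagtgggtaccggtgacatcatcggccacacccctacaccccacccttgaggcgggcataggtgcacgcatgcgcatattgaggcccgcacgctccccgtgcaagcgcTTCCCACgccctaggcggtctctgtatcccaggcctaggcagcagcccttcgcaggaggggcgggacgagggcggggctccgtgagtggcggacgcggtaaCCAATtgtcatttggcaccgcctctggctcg
Racgap1: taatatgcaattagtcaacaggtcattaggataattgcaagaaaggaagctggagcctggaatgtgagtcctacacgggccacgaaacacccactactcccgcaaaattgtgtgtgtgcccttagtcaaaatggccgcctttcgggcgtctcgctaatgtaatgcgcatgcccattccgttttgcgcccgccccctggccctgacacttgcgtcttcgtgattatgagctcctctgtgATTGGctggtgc
Hmmr has 4 CCAAT boxes in this stretch and no TTTGAA. Its RefSeq start was not found among the transcripts of a second annotation, GENCODE, while those of Cdk1, Prc1 and Racgap1 were. Cdk1 has 3 CCAAT boxes and 2 copies of TTTGAA, the nearer of them 10 to 15 bases before the start. Prc1 and Racgap1 have 1 CCAAT box each, and no printed match overlaps another. A match is a description of the letters and not of binding.

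Of the 8 called genes, 5 belong to spindle assembly and cytokinesis, the splitting of the cell after chromosome separation. Hmmr (chromosome 11, 40701388 to 40733463), a spindle protein that also binds hyaluronan, was at 6.29, 5.12 and 6.78 FPKM in wild type 1 to 3 and at 9.51, 8.86 and 9.05 FPKM in NICD2 1 to 3. All 3 NICD2 libraries lay above all 3 wild type libraries, and the means differed by 50.7% (log2 fold change 0.53 ± 0.10, limma adjusted p = 0.0126). Ect2 (chromosome 3, 27097222 to 27153909), the exchange factor that activates RhoA at the division plane, was at 7.49, 7.61 and 8.78 FPKM and at 13.1, 11.4 and 10.8 FPKM. Its groups were also apart, with a mean 47.9% higher in NICD2 (log2 fold change 0.51 ± 0.09, limma adjusted p = 0.0118). Hmmr was the single gene of the 42 that kept its call in all 6 fits without 1 library, with limma adjusted p up to 0.0455. Ect2 kept it in 5 of them and reached 0.057 without wild type 2.

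Prc1 (chromosome 7, 80294451 to 80316259), which bundles the microtubules of the spindle midzone, was at 17.6, 14.8 and 18.3 FPKM in wild type and at 24.9, 22.8 and 20.6 FPKM in NICD2 (log2 fold change 0.41 ± 0.10, limma adjusted p = 0.0356). Racgap1 (chromosome 15, 99620192 to 99651656) forms the centralspindlin complex with the kinesin Kif23 and recruits Ect2. It was at 24.6, 20.3 and 23.4 FPKM and at 33.4, 29.5 and 27.5 FPKM (log2 fold change 0.39 ± 0.09, limma adjusted p = 0.0388). Anln (chromosome 9, 22331214 to 22389733), anillin, a scaffold of the contractile ring, was at 8.76, 7.87 and 10 FPKM and at 14.3, 11.7 and 11.1 FPKM (log2 fold change 0.43 ± 0.11, limma adjusted p = 0.0497). In these 3 genes the groups did not overlap, and NICD2 1 was the highest library in each. Prc1, Racgap1 and Anln each lost the call in 4 of the 6 fits without 1 library, with limma adjusted p up to 0.114, 0.13 and 0.165. The sixth gene of the group, Nusap1, which binds microtubules near chromosomes, was at 18.8, 14.7 and 18.6 FPKM and at 24.6, 17.8 and 17.4 FPKM. There NICD2 1 alone stood above wild type 1 and 3 (limma adjusted p = 0.467).

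**Figure D2:**
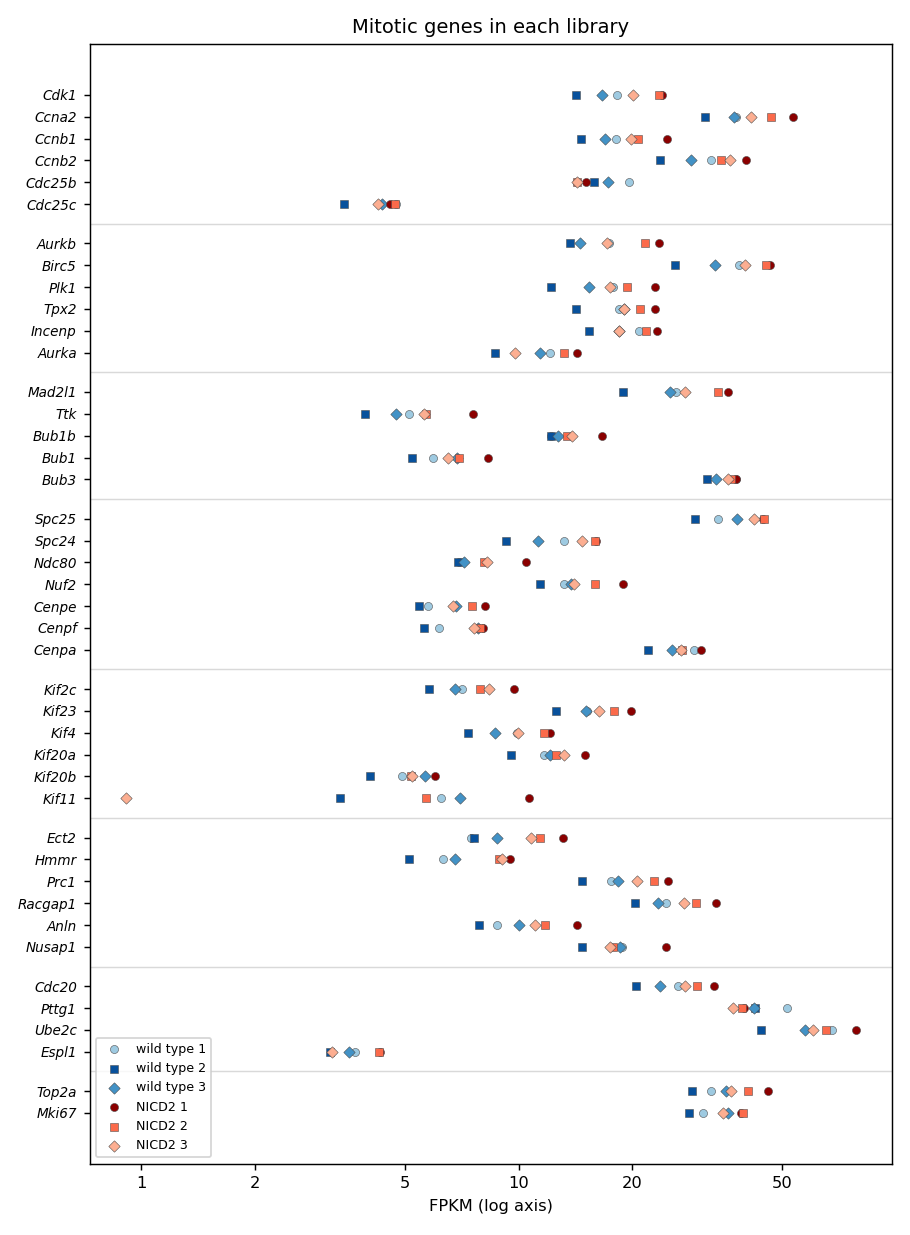
FPKM on a log axis of the 42 mitotic genes in each of the 6 libraries, 1 point per library, blue for wild type and red for NICD2. Wild type 2 (dark blue squares) has the lowest or tied lowest value for 38 genes and NICD2 1 (dark red circles) the highest for 36.

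Of the genes at the core of mitotic entry, 1 of 6 was called. Cdk1, the kinase itself (chromosome 10, 69336635 to 69352912), was at 18.2, 14.2 and 16.6 FPKM in wild type and at 24, 23.6 and 20.1 FPKM in NICD2. The groups were apart, and the mean was 38.2% higher (log2 fold change 0.45 ± 0.10, limma adjusted p = 0.0328). Without 1 library, Cdk1 lost its call in 4 of 6 fits, with limma adjusted p up to 0.105.

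Its partner cyclins Ccna2, Ccnb1 and Ccnb2 were not called, although their groups did not overlap. Ccna2, which acts in S phase and G2, was at 37.8, 31.2 and 37.3 FPKM and at 53.4, 46.8 and 41.4 FPKM (limma adjusted p = 0.0536). Ccnb1 was at 18.1, 14.6 and 16.9 FPKM and at 24.7, 20.7 and 19.9 FPKM (limma adjusted p = 0.06). The mean of Ccnb2, at 28.2 ± 4.38 and 36.9 ± 2.79 FPKM (SD, n = 3), was above that of Ccnb1 in both groups. The cyclins lay close to the threshold and passed it in some other fits. Ccna2 passed with a filter of 5 FPKM, with median-ratio scaling, with robust empirical Bayes and without NICD2 3 (limma adjusted p = 0.0465, 0.0475, 0.0378 and 0.0311). Ccnb1 passed with robust empirical Bayes and with replicate number as a block (limma adjusted p = 0.0406 and 0.037). Ccnb2 passed without wild type 1 and with that block (limma adjusted p = 0.0306 and 0.0279). With a term for adrenal RNA, a fit added after the marker levels were seen, Ccna2 and Ccnb1 passed (limma adjusted p = 0.0362 and 0.0498) and Ccnb2 did not. Over all fits run, the limma adjusted p ranged up to 0.177 for Ccna2, 0.227 for Ccnb1 and 0.262 for Ccnb2.

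The 3 Cdc25 phosphatases, which activate cyclin-dependent kinases, differed in direction. Cdc25a, from the list of other entry genes and chosen after its values were seen, was at 8.84, 8.35 and 9.24 FPKM in wild type and at 11.1, 11.1 and 9.64 FPKM in NICD2. Its groups were apart, higher in NICD2, and it was not called (log2 fold change 0.24 ± 0.08, limma adjusted p = 0.0976). Cdc25b was at 19.7, 15.8 and 17.3 FPKM in wild type and at 15.1, 14.3 and 14.3 FPKM in NICD2. All NICD2 values were below all wild type values, with the mean down by 17.3%, and the gene was not called (log2 fold change -0.25 ± 0.08, limma adjusted p = 0.103). Cdc25c was at 4.73, 3.44 and 4.33 FPKM and at 4.56, 4.7 and 4.23 FPKM, with a 95% interval of the fold change from -0.15 to 0.34. Its values overlapped almost fully.

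None of the 6 genes of the Aurora, Polo and passenger group was called, and all 6 had a fold change above 0. Aurkb, the Aurora kinase of the passenger complex that corrects wrong attachments, was at 17.3, 13.7 and 14.6 FPKM and at 23.5, 21.6 and 17.2 FPKM (log2 fold change 0.42 ± 0.12, limma adjusted p = 0.0719). The lowest NICD2 value, in NICD2 3, lay just under the highest of wild type. Birc5, survivin, another subunit of that complex, was at 38.5, 26 and 33.1 FPKM and at 46.4, 45.4 and 39.7 FPKM, with groups that did not overlap (limma adjusted p = 0.0794). Incenp, the scaffold of the complex, differed less, with a fold change of 0.21 ± 0.12 (limma adjusted p = 0.323). Plk1, the Polo-like kinase, was at 17.8, 12.2 and 15.4 FPKM and at 23, 19.4 and 17.5 FPKM (limma adjusted p = 0.126). NICD2 3 lay just under wild type 1. Aurka, the spindle pole kinase, and its activator Tpx2 had limma adjusted p of 0.483 and 0.18, and their groups overlapped.

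At the kinetochore, 2 of 7 genes were called, and both encode subunits of the Ndc80 complex, which holds the microtubule. Spc25 (chromosome 2, 69193895 to 69206213) was at 33.8, 29.3 and 38 FPKM in wild type and at 44.4, 44.8 and 42.1 FPKM in NICD2 (log2 fold change 0.38 ± 0.09, limma adjusted p = 0.0395). Spc24 (chromosome 9, 21755066 to 21760448) was at 13.2, 9.25 and 11.3 FPKM and at 16.1, 15.9 and 14.7 FPKM (log2 fold change 0.45 ± 0.11, limma adjusted p = 0.0428). Both had groups apart and NICD2 libraries closer to each other than the wild type ones, and both lost the call in 5 of the 6 fits without 1 library, with limma adjusted p up to 0.112 and 0.119. The other subunits of the complex, Ndc80 and Nuf2, also had groups that did not overlap and were not called. Ndc80 was at 6.96, 6.92 and 7.18 FPKM and at 10.5, 8.1 and 8.22 FPKM (limma adjusted p = 0.0996). Nuf2 had means of 12.8 and 16.3 FPKM (limma adjusted p = 0.116). Spc25 was the most abundant of the 4 and Ndc80 the least in both groups. Cenpa, the histone that marks centromeres, had the smallest difference of the 7, at 25.6 ± 3.54 and 28.2 ± 2.04 FPKM (SD, n = 3; limma adjusted p = 0.443). The kinetochore motor Cenpe and the large protein Cenpf had overlapping groups and limma adjusted p of 0.137 and 0.192.

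The spindle assembly checkpoint had no called gene among 5. Mad2l1, which blocks the activator Cdc20 until chromosomes are attached, was at 26.1, 18.9 and 25.3 FPKM and at 35.9, 33.7 and 27.6 FPKM (log2 fold change 0.46 ± 0.13, limma adjusted p = 0.0741). Its fold change was as large as that of Cdk1, with more spread between libraries. The checkpoint kinase Ttk was at 5.12, 3.91 and 4.72 FPKM and at 7.55, 5.68 and 5.6 FPKM, and NICD2 1 stood well above the rest (limma adjusted p = 0.105). Bub1b and Bub1, with fold changes of 0.22 ± 0.09 and 0.24 ± 0.11, had limma adjusted p of 0.148 and 0.242. Bub3, which has further roles outside mitosis, was at 34.2 ± 3.1 and 36.7 ± 0.86 FPKM (SD, n = 3), and the 95% interval of its fold change ran from -0.07 to 0.27.

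Among 6 kinesins none was called. Kif2c, which takes microtubules apart at kinetochores, Kif23 of centralspindlin, Kif4, a motor of chromosomes and the midzone, and Kif20a, a motor of cytokinesis, had groups that did not overlap. Those fold changes were 0.35, 0.31, 0.35 and 0.27, with limma adjusted p of 0.0652, 0.0816, 0.0946 and 0.141. Kif20b overlapped between groups at 4.86 ± 0.811 and 5.46 ± 0.474 FPKM (SD, n = 3).

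Kif11, the motor that pushes spindle poles apart, gave values that cannot be compared with the rest. It was at 6.21, 3.36 and 7.01 FPKM in wild type and at 10.6, 5.68 and 0.91 FPKM in NICD2, with an SE of 0.57 on the log2 scale, while the SE of the other 41 genes lay between 0.07 and 0.15. The table places this gene on a scaffold outside the chromosomes, whereas RefSeq places it on chromosome 19. The sources used here do not say how reads were divided between such copies. The row of Hhex on the same scaffold was listed at 0 in wild type 1 and 3 and NICD2 1 and at 5.23 to 5.87 FPKM in the other 3 libraries. In NICD2 3, where Kif11 was lowest, Hhex was at 5.35 FPKM. The remaining rows of that scaffold, Ide and March5, were not near 0 in any library. They ran from 15.7 to 27.4 and from 40.6 to 47.5 FPKM. The fold change of Kif11 changed sign without NICD2 3, from -0.25 to 0.48. Without Kif11, the median fold change of the remaining 41 genes was 0.32.

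Of the genes of anaphase and mitotic exit none was called. Cdc20, the activator of the anaphase-promoting complex, was at 26.4, 20.5 and 23.8 FPKM and at 33, 29.8 and 27.7 FPKM, with groups apart (limma adjusted p = 0.0714). Ube2c, the ubiquitin-conjugating enzyme of that complex, had the highest mean of the 42 genes and a wide spread, at 67.9, 43.9 and 57.6 FPKM and at 78.4, 65.1 and 60.3 FPKM (limma adjusted p = 0.311). Pttg1, securin, the inhibitor of the protease separase, went the other way. It was at 51.5, 42.4 and 42 FPKM in wild type and at 39.5, 39 and 37 FPKM in NICD2, with no overlap and a mean lower by 15% (log2 fold change -0.22 ± 0.09, limma adjusted p = 0.145). Separase itself, Espl1, had the lowest mean of the 42 in wild type, at 3.47 ± 0.275 and 3.92 ± 0.627 FPKM (SD, n = 3; limma adjusted p = 0.515).

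The general marks of proliferation, Top2a and Mki67, were not called either. Top2a, which untangles replicated chromosomes, was at 32.4, 28.8 and 35.4 FPKM and at 45.9, 40.5 and 36.5 FPKM, with groups apart by a narrow gap (limma adjusted p = 0.0765). It passed the threshold with the term for adrenal RNA (limma adjusted p = 0.0307) and in no other fit run, where the value reached 0.225. Mki67, which encodes the proliferation marker Ki-67, was at 30.8, 28.3 and 35.8 FPKM and at 38.8, 39.3 and 34.9 FPKM. There NICD2 3 lay below wild type 3 (log2 fold change 0.25 ± 0.09, limma adjusted p = 0.135). The interval for Mki67, from 0.04 to 0.46, covers a difference near 0 as well as one as large as that of Cdk1.

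The 42 genes also differed together between libraries of the same group. Relative to the mean of the 6 libraries on the log2 scale, the median of the genes was -0.06, -0.34 and -0.08 in wild type 1 to 3 and 0.30, 0.15 and 0.02 in NICD2 1 to 3. Over all genes tested the same medians lay between -0.01 and 0.01. Wild type 2 had the lowest or tied lowest value of the 6 for 38 of the 42 genes, against 17.1% of all genes tested. NICD2 1 had the highest for 36 of them, against 18.2%, and NICD2 3 was the lowest of its group for 34, against 35.3%. The gap between wild type 1 and NICD2 3 at the median was smaller than the gap between NICD2 1 and NICD2 3. Leaving out wild type 2 brought the median fold change to 0.25 and the calls to 1 of 42, where 2.84% of genes were higher, with 19 genes higher at an unadjusted p under 0.05. Leaving out NICD2 1 brought it to 0.24, with 2 calls against 2.76% of genes, and 20 such genes. Without NICD2 2 there were 2 calls against 3.02%, and without NICD2 3, the library with no Y-linked RNA, 9 against 3.9%. With no filter on low values, 2 of 42 were called against 2.63%. The median stayed above 0 in all 6 such fits, from 0.24 to 0.39, and at least 38 of the 42 fold changes were above 0 in each.

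**Figure D3:**
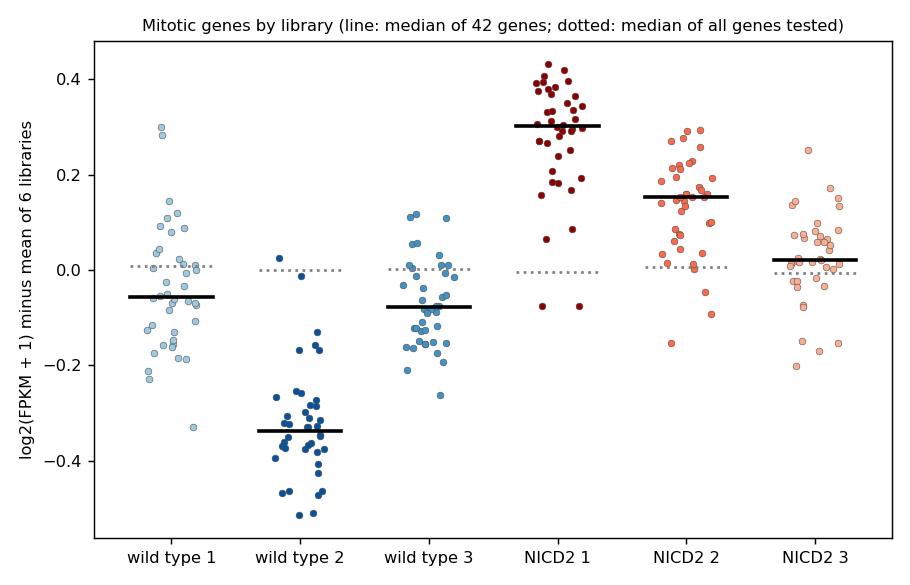
Deviation of log2(FPKM + 1) from the mean of the 6 libraries (y axis) by library (x axis), 1 point per mitotic gene with Kif11 not drawn. Black lines are medians of the 42 genes (-0.34 in wild type 2, 0.30 in NICD2 1) and dotted lines the medians of all genes tested.

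Markers of other cells were set beside this order. The 8 markers of nephron progenitors, which divide at this age, summed to 66.7 to 68.8 FPKM in wild type and 61.1 to 64.9 FPKM in NICD2, with none of 7 tested genes called and a median fold change of -0.23. Six2, the defining transcription factor of these cells, did not pass the filter. It was at 1.51, 1.05 and 0.99 FPKM in wild type and at 0.57, 0.7 and 0.46 FPKM in NICD2, lower in NICD2 with no overlap. Of the tested genes, Cited1 (log2 fold change -0.59 ± 0.19, limma adjusted p = 0.0963), Eya1 (-0.29 ± 0.12, limma adjusted p = 0.183) and Meox1 (-0.23 ± 0.07, limma adjusted p = 0.0978) also had lower values in NICD2 with no overlap. Osr1 overlapped (-0.39 ± 0.20, limma adjusted p = 0.279). Crym (0.13 ± 0.08, limma adjusted p = 0.344) and Tmem100 (0.12 ± 0.11, limma adjusted p = 0.551) had fold changes above 0, with overlap. Itga8, the most abundant of the 8, was at means of 35.5 and 34.8 FPKM (-0.02 ± 0.10, limma adjusted p = 0.921). The list thus held no uniform fall. Stromal markers summed to 483 to 575 and 430 to 500 FPKM, with a median fold change of -0.29. All 7 stromal fold changes were below 0. Of the 7, 1 was called lower (Foxd1, limma adjusted p = 0.025), against 3.86% of all genes tested. Meis1 and Pdgfrb were also lower in NICD2 with no overlap (limma adjusted p = 0.0528 and 0.059). Red cell precursor markers summed to 21.5 to 35.6 and 15.9 to 26.3 FPKM, with none of 3 tested called and Rhag and Trim10 at or under 0.48 FPKM throughout. The 3 tested fold changes were all below 0, with a median of -0.30. Among them Slc4a1 was lower in NICD2 with no overlap (log2 fold change -0.99 ± 0.26, limma adjusted p = 0.0547), and Alas2 and Epor overlapped. The untested genes of that list had higher means in NICD2, at low levels. Leukocyte markers summed to 41.8 to 59.4 and 53.7 to 70.5 FPKM, with 1 of 6 higher (Itgam, limma adjusted p = 0.0484) and Cd3e at or under 0.43 FPKM. NICD2 1, where most of the mitotic genes were highest, had the highest sum of leukocyte markers and the lowest of red cell markers. The part of these cells in the result was not tested. The adrenal split falls on 1 library of each group. With a term for it, 10 of the 42 genes were called higher against 4.8% of all genes, and in the 4 libraries with adrenal RNA the median fold change was 0.29, with 2 calls against 2.2%.

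Other genes of mitosis were taken from 7 lists with 113 genes, all of them tested. Limma called 10 higher (8.85%, against 4.93% of all genes tested) and none lower (against 3.86%). The fold change was above 0 for 93 (82.3%, against 48.2%), with a median of 0.18 against -0.01. Among transcription regulators of G2/M genes, Foxm1, the forkhead factor that activates many of the 42, was at 13.9, 12.3 and 12.7 FPKM and at 16, 17.4 and 13.3 FPKM (limma adjusted p = 0.171). Mybl2, which acts with it, was at 4.99 ± 0.336 and 6.1 ± 1.06 FPKM (SD, n = 3; limma adjusted p = 0.247). Of those 14 regulators 2 rose, the pocket protein gene Rbl1 (9.43 to 13 FPKM, limma adjusted p = 0.0437) and the repressor E2f8 (7.22 to 9.79 FPKM, limma adjusted p = 0.0467). In mitotic entry 2 of 11 rose, Nek2, a centrosome kinase, at 6.77 and 9.95 FPKM, and Wee1, the kinase that inhibits CDK1, at 9.04 and 11.8 FPKM (limma adjusted p = 0.00671 and 0.0212). Nek2 is on a scaffold outside the chromosomes in the table, like Kif11.

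In the outer kinetochore 3 of 18 rose, Spdl1, Mis12 and Trip13, with limma adjusted p of 0.0151, 0.0263 and 0.0382. Of the inner kinetochore, 1 of 17 rose, Cenph, at 7.67 and 10.4 FPKM (limma adjusted p = 0.0268). Of 17 other spindle genes, Dlgap5, a spindle microtubule protein, and Tacc3, which crosslinks spindle fibres, rose. Dlgap5 had the largest fold change of the 113, at 6.4, 5.2 and 6.39 FPKM in wild type and 9.88, 9.69 and 8.82 FPKM in NICD2 (0.58 ± 0.09, limma adjusted p = 0.00624). Condensin and cohesin had no call among 19 genes, with a median of 0.13 and the smallest limma adjusted p at 0.0626 for Esco2. The anaphase-promoting complex, whose core subunits are present in cells at rest as well, had none among 17 and a median of 0.02. The calls over the 113 genes fell to 2 (1.77%) without wild type 2, without NICD2 1 or without NICD2 2. That share was below the 2.84%, 2.76% and 3.02% of all genes called higher in the same fits. Without NICD2 3 the calls were 18 (15.9%, against 3.9%).

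**Figure D4:**
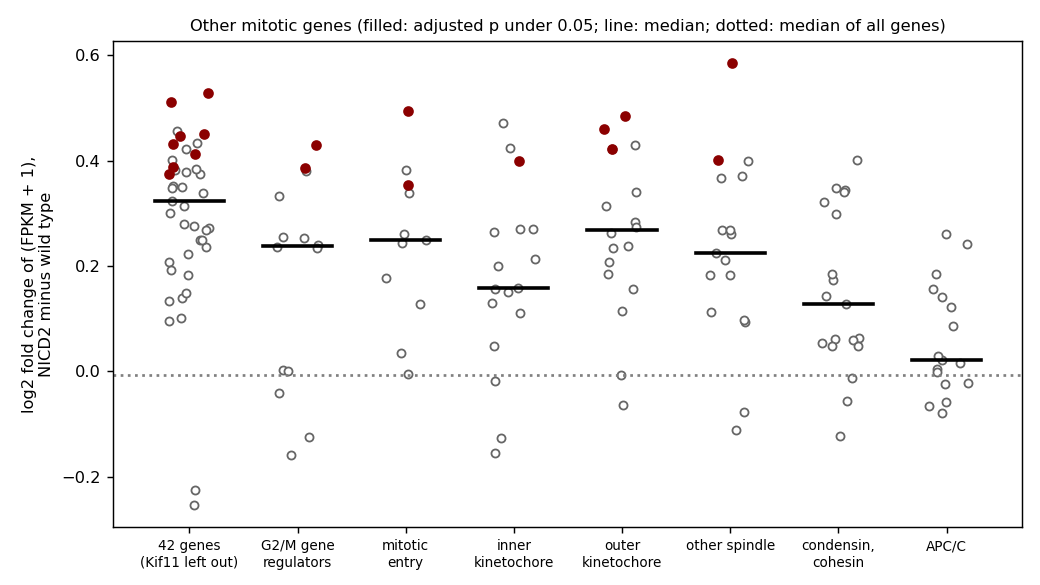
Log2 fold change of (FPKM + 1), NICD2 minus wild type (y axis), for the 42 mitotic genes without Kif11 and for 7 lists of other mitotic genes, 1 point per gene. Filled points have adjusted p under 0.05, black lines are list medians (0.02 for the anaphase-promoting complex, APC/C, and 0.27 for the outer kinetochore) and the dotted line is the median of all genes tested.

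In the authors' deposited table, a DEGseq comparison of the same libraries gave q under 0.05 with a higher value in NICD2 for 38 of the 42 genes, where it did so for 22.9% of 18724 genes. The authors' deposited table also gave 2 members as lower, Cdc25b and Pttg1, against 26% of genes. Cdc25c and Kif11 had q of 0.154 and 0.23 in the authors' deposited table. The libraries are the same as those of the limma fit, so the overlap is no independent check. Over all genes tested limma called only 4.93% higher and 3.86% lower, so the 38 here and the 8 of limma are not like counts.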

How the data were processed

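RNA came from whole kidneys at postnatal day 3, and libraries were made with an Illumina TruSeq kit from 1 ug of total RNA, per the labels' protocols. The authors computed FPKM per gene and library, given to 2 decimals, per the file headers. The authors' deposited log2 fold change and its p-value and q-value come from DEGseq, per the file headers. Bowtie 0.12.2 and mm8 are listed in the submitters' processing notes, while the table's coordinates are those of GRCm38. The program behind the FPKM and its handling of strand and shared reads are not stated in any source used. Of 23669 rows, 4010 had no FPKM. A set of 27 columns comparing single samples was not used. A deposited length of each gene's longest transcript served, less 120 bases, to estimate depth: 77.1% to 81.2% of low values came within 0.15 of a whole fragment, against 30% by chance. In each library, members other than Kif11 had at least an estimated 187 fragments.

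Log2(FPKM + 1) was analysed in R 4.3.3 by limma 3.58.1, using a mean-variance trend and all 6 libraries, after a test on simulated data. Tables and figures used Python 3.11.15, pandas 2.3.3 and matplotlib 3.10.9. The members and lists were chosen with earlier results of these data known. All 42 members could be named, of each other list up to 4 called genes or the 2 with smallest p, Foxm1 and Mybl2 always, and any marker. Others are said to be chosen after their values were seen. Promoters shown are the 4 members of smallest p outside chromosome 18. Ect2 was passed over because another annotated start lies upstream, and bases past any annotated start were left off. Alternatives were another pseudocount, filter, scaling, variance model, a replicate block, and each library left out, plus 2 fits on adrenal RNA chosen after seeing the data.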

Additional observations from a re-analysis of the deposited data

How the results depend on the processing

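The direction of the 42 mitotic genes held more firmly than their calls. The count of called members, 8, was 2 with no filter on low values, 2 in the 4 libraries with adrenal RNA, and from 1 to 9 when 1 library was left out. It stayed between 7 and 11 with a pseudocount of 0.1, a filter of 5 FPKM, both other scalings, robust empirical Bayes, the term for adrenal RNA and the replicate block. No member was called lower in any of these fits. Calls among the 113 other mitotic genes, 10, were 4 with no filter, 16 with robust empirical Bayes, 4 in the libraries with adrenal RNA and 2 to 18 without 1 library. Over all genes, 679 higher and 531 lower calls became 296 and 173 in the libraries with adrenal RNA, and 377 to 568 and 215 to 391 without 1 library. Fits without a library have fewer samples. Cdc25c, not called, ran from -0.0087 without wild type 2 to 0.18 without wild type 1, and Kif11 from -0.82 without NICD2 1 to 0.48 without NICD2 3, each with a change of sign. Replicate numbers did not pair the samples: deviations from the group means correlated at -0.03, 0.06 and -0.05 within the 3 numbers, and no sample correlated best with its own number. With the replicate block 9 members were called, 5 of them among the 8, and 616 genes were higher and 439 lower. The block gained Ccnb1, Ccnb2, Aurkb and Kif2c (limma adjusted p = 0.037, 0.0279, 0.0426 and 0.0406). Depth was similar in all libraries and is an estimate.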
